A study of Mus musculus with 8 samples.

Results

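The genes described here are 9 transcription factors of the coelomic and mesothelial lineages, namely the T-box factors Tbx2, Tbx3, Tbx4, Tbx5, Tbx18 and Tbx20, the zinc-finger factors Gata4 and Gata6, and the basic helix-loop-helix factor Tcf21. They were chosen by name, and Tbx2 was included because its mean was lower in static CAV1-/- mesothelial cells (MCs). Of the 9 genes, 8 had a row among the 13687 genes of the RNAseq table, and Tbx5 had none. The cells were primary MCs digested from the parietal peritoneum of 2 WT mice and 2 CAV1-/- littermates (line B6.Cg-CAV1tm1mls/J), in which the gene of the caveolar coat protein caveolin-1 is inactivated in the whole animal. MCs of every animal were grown to confluence in serum-containing medium, and 1 culture per animal was then left static while another was stretched for 24 h. This gives 8 libraries in 4 groups of 2 cultures (WT static, WT stretch, CAV1-/- static and CAV1-/- stretch), and cultures with the same genotype and replicate number came from the same animal. On GRCm38, Tbx2 (chr11:85832551-85841948) and Tbx4 (chr11:85886422-85916097) lie side by side, Tbx18 (chr9:87702800-87731260) and Tbx20 (chr9:24718138-24774303) are on chromosome 9, and Tbx3 (chr5:119670669-119684724), Gata4 (chr14:63198922-63271692), Gata6 (chromosome 18) and Tcf21 (chr10:22817281-22820174) are each on their own. The study's text gives more replicates for this experiment than the labels do. The ages of the mice were not given in the sources used here.

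T-box factors bind short T-box elements in DNA through a shared domain and act as activators or, in the case of Tbx2 and Tbx3, mainly as repressors. GATA factors recognise the GATA motif through zinc fingers, and Tcf21 binds E-boxes as a dimer with widely expressed partners such as Tcf12. In development, Tbx18, Tcf21, Gata4 and Gata6 are known from the epicardium and from the mesothelium of other coelomic organs, and Gata6 is also the factor of the large resident macrophages of the peritoneal cavity.

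RefSeq promoter sequences (GRCm38.p6) were matched for 4 of the 9 members, Tbx4, Tbx18, Tbx20 and Tcf21. Those of Tcf21 and Tbx18 are shown because these members had the largest differences in opposite directions between genotypes in static culture among those with a matched promoter. Each window is 240 bases long, lies on the minus strand and ends 10 bases before the annotated start, at chr10:22820154-22820393 for Tcf21 and at chr9:87731271-87731510 for Tbx18. Capitals mark a GATA motif, searched on both strands as GATA preceded by A or T and followed by A or G.
Tcf21: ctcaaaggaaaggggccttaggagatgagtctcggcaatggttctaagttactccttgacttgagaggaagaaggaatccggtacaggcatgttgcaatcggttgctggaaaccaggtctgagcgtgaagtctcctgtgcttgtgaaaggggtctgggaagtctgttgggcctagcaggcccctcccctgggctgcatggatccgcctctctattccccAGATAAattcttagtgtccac
Tbx18: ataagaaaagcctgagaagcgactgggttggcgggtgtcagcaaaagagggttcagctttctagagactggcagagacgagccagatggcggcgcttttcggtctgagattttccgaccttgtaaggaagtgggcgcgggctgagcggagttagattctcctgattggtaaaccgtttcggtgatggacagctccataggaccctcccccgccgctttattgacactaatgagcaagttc
The Tcf21 window held 1 GATA motif, which begins 31 bases before the RefSeq start, at the base that GENCODE gives as the start of the gene. GATA motifs were present in 25.9% of the 32851 promoter windows of this length. None was found in the windows of Tbx4, Tbx18 and Tbx20. The T-box element GGTGTGA was in none of the 4 windows and in 3.22% of all windows, and the E-box CAGCTG was in the Tbx4 window alone of the 4 and in 12.4% of all windows. By GENCODE the Tbx4 window lies inside the gene, since it ends 10333 bases past the start given there. No motif overlapped another in these 4 windows, and a match describes letters only.

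Values are TMM-normalized CPM, that is reads scaled to the size of the library and corrected for its composition. The libraries held 9777738 to 21203938 reads, each stretched library had more reads than any static one, and the smallest amount taken as detectable (3 reads) was worth 0.146 to 0.308 CPM, a floor that covers counting error only. Cav1 itself was between 247 and 764 CPM in the WT libraries and between 12.8 and 34.5 CPM in the CAV1-/- libraries. The summed level of 14 mesothelial markers was between 3136 and 4139 CPM in WT cultures and between 926 and 1179 CPM in CAV1-/- cultures. CAV1-/- replicate 1 stood apart from the other 3 animals, because its summed level of 14 leukocyte and macrophage markers was 4838 CPM in static culture and 4848 CPM on stretch, against 76.3 to 467 CPM elsewhere, and 12 of the 14 markers were higher in both of its cultures than in any other library. The leukocyte markers Timd4, Cx3cr1, Aif1 and Cd3e had no row. In bulk libraries, fewer cells of a type and less RNA per cell cannot be told apart.

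**Figure D1:**
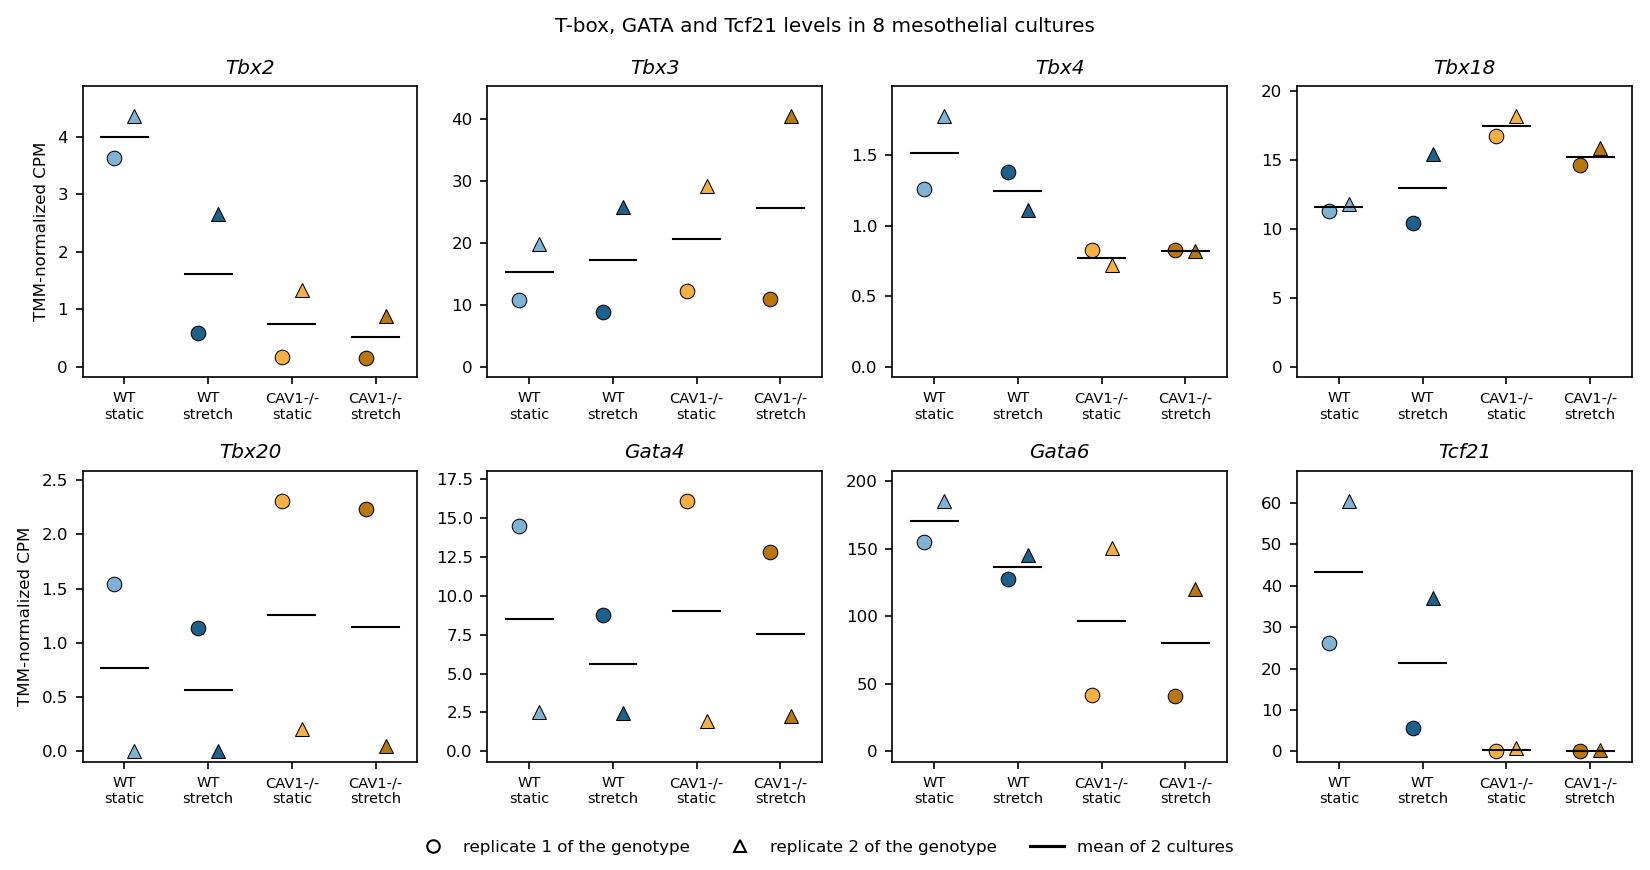
TMM-normalized CPM (y axis, linear, own scale in each panel) of the 8 members in the 4 groups (x axis), with circles for replicate 1 and triangles for replicate 2 of each genotype and lines for the mean of 2 cultures. Tcf21 was at 0 to 0.82 CPM in all CAV1-/- cultures and at 5.77 CPM or more in all WT cultures, whereas Gata4, Tbx3 and Tbx20 separated replicate 1 from replicate 2 within each genotype.

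Tcf21, known from the epicardium, from mesenchymal progenitors and from fibroblast precursors, showed the largest genotype difference of the 8 members. In static culture it was at 26.2 and 60.5 CPM (374 and 749 reads) in WT MCs, against 0 and 0.82 CPM (0 and 8 reads) in CAV1-/- MCs. On stretch it was at 5.77 and 37.1 CPM (117 and 602 reads) in WT MCs and at 0 and 0.44 CPM (0 and 8 reads) in CAV1-/- MCs. All 4 WT cultures were thus above all 4 CAV1-/- cultures, and the cultures at 0 were those of CAV1-/- replicate 1, for which 0 reads allow a level of up to 3 reads, or 0.247 CPM in static culture and 0.146 CPM on stretch. The CAV1-/- mean was 105-fold lower in static culture and 97.9-fold lower on stretch, or 81.0-fold and 73.5-fold lower with the library at 0 set to its floor. CAV1-/- replicate 2 alone, the animal without the high leukocyte markers, was 52.7-fold and 48.9-fold below the WT mean in these conditions. On the log2(CPM + 1) scale, which understates the change of low genes, the difference in static culture was -4.92 (SE 0.86, n = 2 cultures per group), which did not pass the threshold of 0.05 after adjustment over all 13665 genes tested (limma adjusted p = 0.125). The stretched cultures gave -3.74 (SE 0.86, limma adjusted p = 0.352), and -2.50 without WT stretch replicate 2, which held most of the WT reads. In an exact two-sided permutation test, 2 against 2 cultures cannot go below p = 0.333.

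Within WT MCs, Tcf21 was lower on stretch in both animals, from 26.2 to 5.77 CPM in replicate 1 and from 60.5 to 37.1 CPM in replicate 2. The stretch difference was -1.35 on the log2 scale (SE 0.86, limma adjusted p = 1.00), and with the animal as a block it reached an adjusted p of 0.210. In CAV1-/- MCs the level on stretch remained at 0 in replicate 1 and was 0.44 against 0.82 CPM in replicate 2, with 8 reads in each of these cultures. The difference between the stretch effects of the genotypes was 1.18 (SE 1.21, limma adjusted p = 1.00).

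Gata6, a zinc-finger factor of mesoderm and endoderm, had the highest level of the members per kilobase of exon. It was at 155 and 185 CPM in static WT MCs, at 42.1 and 150 CPM in static CAV1-/- MCs, at 127 and 146 CPM in stretched WT MCs, and at 40.9 and 120 CPM in stretched CAV1-/- MCs. The groups did not overlap in either condition, but the distance came mainly from CAV1-/- replicate 1, which was 4.04-fold below the WT mean in static culture and 3.34-fold below it on stretch. CAV1-/- replicate 2 was 1.13-fold below the WT mean in both conditions. The log2 difference was -1.08 in static culture (SE 0.69, limma adjusted p = 0.804) and -0.94 on stretch (SE 0.69, limma adjusted p = 0.959), and with both cultures of CAV1-/- replicate 1 left out it was -0.17 and -0.18. The animal with the low Gata6 level was the one with the high leukocyte marker sum, and the part of these markers in the result was not tested. The antisense gene 1010001N08Rik overlaps Gata6 over 504 bases and differed by -1.19 in static culture and -1.35 on stretch (limma adjusted p = 0.775 and 0.890). The strand setting of the counting was not given in the sources used here, so reads of the pair may be shared. The same limit holds for Tcf21, Tbx18 and Tbx3, which overlap the genes Gm10824, D030062O11Rik and Tbx3os1 on the other strand, none of which had a row.

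**Figure D2:**
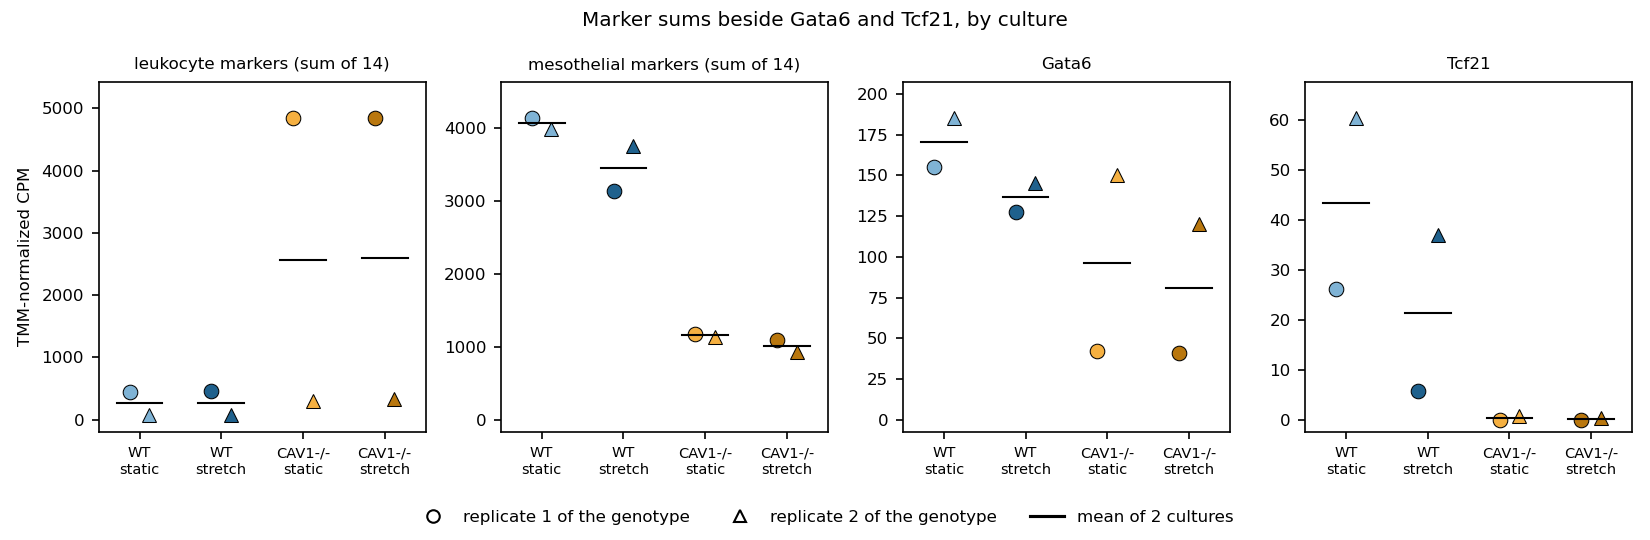
Summed TMM-normalized CPM of 14 leukocyte and 14 mesothelial markers beside the CPM of Gata6 and Tcf21 (y axes, linear, own scale in each panel) in the 4 groups (x axis), with circles for replicate 1, triangles for replicate 2 and lines for means. The leukocyte sum was highest and Gata6 lowest in both cultures of CAV1-/- replicate 1, whereas the mesothelial sum and Tcf21 were lower in both CAV1-/- animals.

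Gata4, the partner of T-box factors in heart and epicardium, separated replicate 1 from replicate 2 and not the genotypes in these cultures. Replicate 1 had 14.5 CPM in static WT MCs and 16.1 CPM in static CAV1-/- MCs, whereas replicate 2 had 2.50 and 1.95 CPM. On stretch, replicate 1 had 8.78 CPM (WT) and 12.8 CPM (CAV1-/-), and replicate 2 had 2.46 and 2.30 CPM. The replicate 1 animals were therefore higher than the replicate 2 animals in every condition, and the replicate number links no animals across genotypes. The labels do not say whether same-numbered cultures of different genotypes were handled together. Over all genes tested, the differences between replicates 1 and 2 also went together across genotypes (r = 0.522 in static culture and 0.484 on stretch). The order of the replicate numbers was thus shared beyond Gata4, and its cause was not tested. The genotype differences were -0.053 in static culture (SE 1.21, 95% interval -2.99 to 2.89) and 0.21 on stretch (SE 1.21, limma adjusted p = 1.00), intervals too wide to show that the genotypes were alike.

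Of the repressors, Tbx2 is given as a description, because its static values chose it. It was at 3.64 and 4.36 CPM (52 and 54 reads) in static WT MCs and at 0.16 and 1.34 CPM (2 and 13 reads) in static CAV1-/- MCs, so that the mean was 5.33-fold lower. The stretched cultures, which the choice did not use but which came from the same 4 animals, had 0.59 and 2.65 CPM (12 and 43 reads) in WT MCs and 0.15 and 0.88 CPM (3 and 16 reads) in CAV1-/- MCs. There the groups overlapped, and the log2 difference was -0.72 (SE 0.54, limma adjusted p = 0.961). With so few reads, the 95% Clopper-Pearson interval for CAV1-/- replicate 1 ran from 0.020 to 0.595 CPM in static culture.

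Tbx3, the close relative of Tbx2, did not share this pattern. In static culture it was at 10.8 and 19.8 CPM in WT MCs and at 12.2 and 29.2 CPM in CAV1-/- MCs. On stretch it was at 8.78 and 25.8 CPM in WT MCs and at 10.9 and 40.5 CPM in CAV1-/- MCs. Replicate 2 was higher than replicate 1 in every group, opposite to Gata4. The groups overlapped in both conditions, with log2 differences of 0.35 (SE 0.79, limma adjusted p = 0.964) in static culture and 0.46 (SE 0.79, limma adjusted p = 1.00) on stretch.

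Tbx4, a factor of hindlimb and lung mesenchyme, lies 44473 bases from Tbx2 on chromosome 11. Its levels were low, at 1.26 and 1.78 CPM (18 and 22 reads) in static WT MCs and at 0.82 and 0.72 CPM (10 and 7 reads) in static CAV1-/- MCs. Stretched cultures had 1.38 and 1.11 CPM (28 and 18 reads) in WT MCs and 0.82 and 0.82 CPM (17 and 15 reads) in CAV1-/- MCs. All 4 WT cultures were above all 4 CAV1-/- cultures, including replicate 2 of the latter. With so few reads, the 95% Clopper-Pearson intervals of the cultures overlapped between genotypes. They ran from 0.66 to 1.75 CPM in WT stretch replicate 2 and from 0.48 to 1.32 CPM in CAV1-/- stretch replicate 1. The log2 difference was -0.50 in static culture (SE 0.24, limma adjusted p = 0.698) and -0.30 on stretch (SE 0.24, limma adjusted p = 0.966). Tbx4 and Tcf21 reached 1 CPM in the 4 WT libraries alone, so they entered the test through the group in which they were higher. Among genes in the table, the other neighbour of Tbx2, Bcas3, differed by -0.14 and -0.21 in the same comparisons.

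Tbx18, which marks epicardium and mesothelium-derived mural cells, was the member that was higher in static CAV1-/- MCs without overlap. It was at 11.3 and 11.8 CPM in WT MCs and at 16.7 and 18.2 CPM in CAV1-/- MCs, so that both CAV1-/- animals were above both WT animals. The mean ± SD was 17.5 ± 1.04 CPM against 11.6 ± 0.32 CPM (n = 2). The log2 difference was 0.55 (SE 0.20, limma adjusted p = 0.547). On stretch it was at 10.5 and 15.5 CPM in WT MCs and at 14.7 and 15.9 CPM in CAV1-/- MCs, with overlap and a difference of 0.24 (SE 0.20, limma adjusted p = 0.97). The stretch effects of the genotypes differed by -0.31 (SE 0.29, limma adjusted p = 1.00).

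Tbx20, a factor of cardiac development, was near or below the detectable amount in replicate 2 of both genotypes. It had 1.54 and 0 CPM (22 and 0 reads) in static WT MCs and 2.31 and 0.21 CPM (28 and 2 reads) in static CAV1-/- MCs. Stretched cultures had 1.13 and 0 CPM (23 and 0 reads) in WT MCs and 2.23 and 0.055 CPM (46 and 1 reads) in CAV1-/- MCs. Replicate 1 was the higher animal in every group, as for Gata4, and 0 reads in WT replicate 2 allow up to 3 reads, or 0.242 CPM in static culture and 0.185 CPM on stretch. The log2 differences were 0.33 in static culture and 0.34 on stretch (SE 0.83 for each, limma adjusted p = 0.971 and 1.00).

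**Figure D3:**
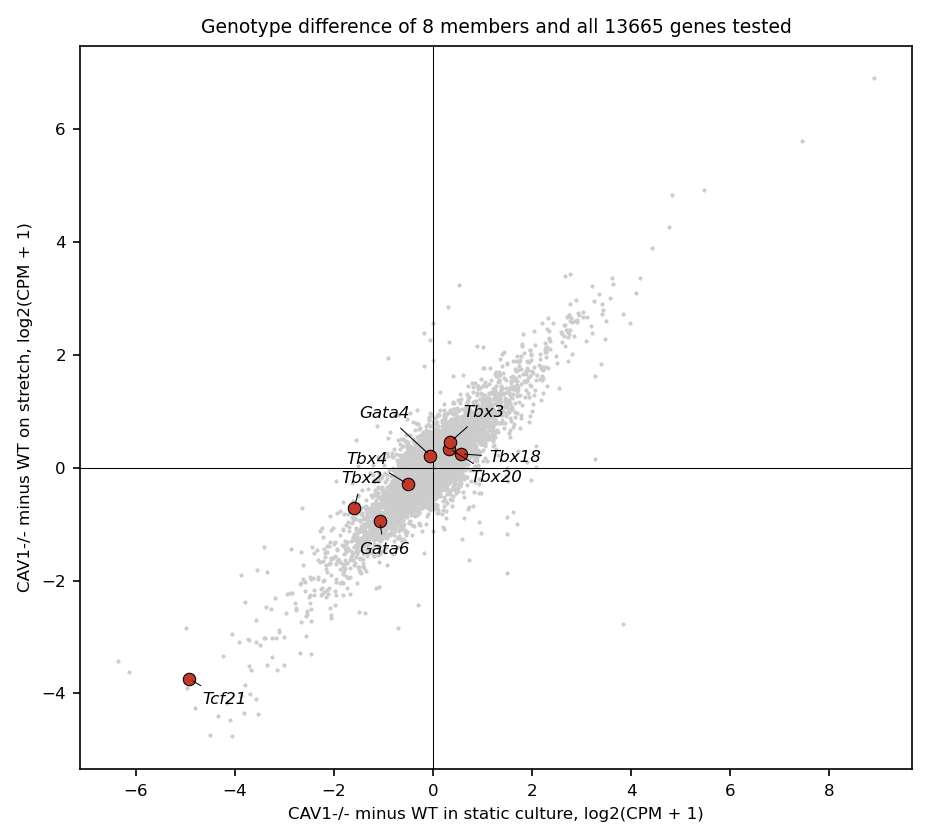
CAV1-/- minus WT difference on the log2(CPM + 1) scale in static culture (x axis) and on stretch (y axis), with grey points for the 13665 genes tested and red points for the 8 members. Tcf21 sits at -4.92 and -3.74, Gata6 and Tbx2 are the next lowest in static culture, and Tbx3, Tbx18 and Tbx20 are above 0 on both axes.

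Counted over the members, 0 of the 7 other than Tbx2 in static culture and 0 of 8 on stretch passed an adjusted p of 0.05 by limma between genotypes. Genes past this threshold made up 0.0659% (lower) and 0.00732% (higher) of all genes tested in static culture, and 0.0512% and 0.00732% on stretch. At an unadjusted p of at most 0.05, Tcf21 was lower in static culture, where 5.42% of all genes were, and Tbx18 was higher, where 2.76% were. On stretch Tcf21 was again lower by this rule (3.82% of all genes), and no member was higher (2.44% of all genes). Apart from Tbx2 in static culture, which was not tested there, neither edgeR nor DESeq2 on the recovered reads gave any member an adjusted p under 0.05.

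By the absence of overlap between groups, Tbx2, Tbx4, Gata6 and Tcf21 were lower in static CAV1-/- MCs, as were 20.8% of all genes, with Tbx2 there by choice. Tbx18 was higher without overlap, as were 16.1% of all genes. On stretch, Tbx4, Gata6 and Tcf21 were lower without overlap (15.9% of all genes) and no member was higher (14.6%). Tbx4 and Tcf21 were lower in all 4 CAV1-/- cultures than in any WT culture, which held for 5.88% of all genes, and no member was higher in all 4 (3.86%). Both Tbx4 and Tcf21 reached 1 CPM in WT libraries alone, so they entered the test through the group in which they were higher. Their separation beside these shares is a description only. The median difference over the 7 members other than Tbx2 was -0.053 in static culture and 0.21 on stretch, beside -0.013 and 0 over all genes tested.

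How far the members differed between animals was compared with the genotype and stretch differences on the same log2 scale. The difference between the 2 animals of a genotype, averaged over the 4 groups, was 2.06 for Gata4, 1.38 for Tbx20, 1.32 for Tbx3 and 1.27 for Tcf21, against a median of 0.28 over all genes. Gata6 (0.95) and Tbx2 (0.78) were also above that median, whereas Tbx18 (0.20) and Tbx4 (0.14) varied less between animals. The log2(CPM + 1) scale understates the differences of low genes, and Tbx4 had only 7 to 28 reads per library. The absolute difference between group means of the genotypes, averaged over both conditions, was 4.33 for Tcf21, 1.01 for Gata6, 0.40 for Tbx3, Tbx4 and Tbx18, 0.33 for Tbx20 and 0.13 for Gata4. It was below the difference between animals in 3 of the 7 members other than Tbx2 (Tbx3, Tbx20 and Gata4), as it was in 69.0% of all genes. Stretch within an animal moved the members by 0.76 (Tcf21) or less on average.

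**Figure D4:**
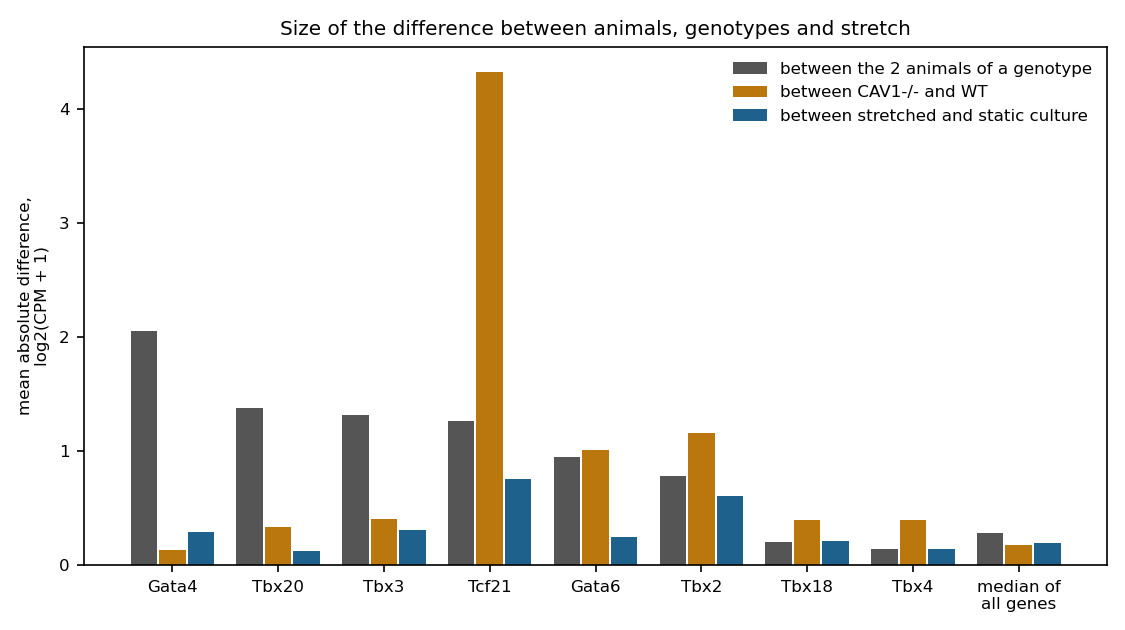
Mean absolute difference in log2(CPM + 1) (y axis, from 0) for each member and for the median of all genes (x axis), between the 2 animals of a genotype (grey), between the group means of the genotypes (orange) and between stretched and static cultures of 1 animal (blue). Gata4, Tbx20 and Tbx3 have their tallest bar between animals, and Tcf21, Gata6, Tbx18 and Tbx4 have it between genotypes, while the genotype bar of Tbx2 includes the static values that chose it.

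Stretch was compared with static culture in each genotype, and 0 of the 7 members other than Tbx2 passed an adjusted p of 0.05 by limma in either, as did 0% of all genes (1 gene in CAV1-/- MCs with the animal as a block). The number at an unadjusted p of at most 0.05 was also 0 of the 7 members other than Tbx2, where 1.45% of all genes were lower and 0.82% higher in WT MCs, and 1.02% and 1.08% in CAV1-/- MCs. Gata6 was lower on stretch in all 4 animals, by 0.28 and 0.35 on the log2 scale in WT MCs and by 0.043 and 0.32 in CAV1-/- MCs. This was 1 of the 7 members other than Tbx2, beside 16.9% of all genes, and no member was higher on stretch in all 4 animals (14.5% of all genes). In WT MCs the Gata6 groups did not overlap, as was the case for 17.2% of all genes in that direction, and the difference was -0.31 (SE 0.69, limma adjusted p = 1.00). In CAV1-/- MCs, Tbx18 was lower on stretch without overlap (11.9% of all genes), with a difference of -0.18 (SE 0.20, limma adjusted p = 1.00). Depth followed stretch in this design, and the 2 cannot be told apart as sources of small differences in low genes. For all 7 members other than Tbx2, the interaction had a limma adjusted p of 1.00. The limma fit behind these stretch and interaction values, apart from the block, did not pair the cultures of an animal. Their SEs and p-values therefore include the spread between animals.

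Per kilobase of exon, the order of the mean levels in static WT MCs was Gata6 (26.2 CPM per kb), Tcf21 (18.4), Tbx18 (2.45), Tbx3 (2.31), Gata4 (2.18), Tbx2 (1.10), Tbx4 (0.45) and Tbx20 (0.064). The SD between cultures was 3.30 for Gata6 and 10.3 for Tcf21, so that these neighbours lay within their spread (28.5 and 25.7 CPM per kb in WT replicate 2). Tbx18, Tbx3 and Gata4 also lay within their spread, since Gata4 ranged from 0.64 to 3.71 CPM per kb, and their order was Tbx3, Gata4 and Tbx18 with the length of the longest transcript. In static CAV1-/- MCs, Gata6 remained at the top with 14.8 CPM per kb, and Tcf21 was at 0.18 CPM per kb, beside Tbx4 at 0.23 and Tbx2 at 0.21.

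The genes of the table whose profile over the 8 libraries was most like that of each member with a mean of at least 5 CPM were named by the smallest root mean square difference of the centred log2 values, among 10797 genes. For Tcf21 these were Megf6 (0.42), Pdlim3 (0.53) and Bche (0.56). Megf6 had 65.8 and 72.2 CPM in static WT MCs against 0.16 and 3.29 CPM in static CAV1-/- MCs, and 9.66 and 46.9 CPM in stretched WT MCs, so that WT stretch replicate 1 was the lower culture for both genes. Gata6 was most like Sh2d5 (0.16), Pear1 (0.17) and Aplp1 (0.17), which were likewise lowest in CAV1-/- replicate 1. Gata4 was most like Ifitm10 (0.25), Perp (0.27), a desmosomal gene, and Fhl1 (0.29). Perp was at 94.4 and 92.1 CPM in replicate 1 and at 26.8 and 21.5 CPM in replicate 2 of static WT and CAV1-/- MCs, the same order of animals as Gata4. Tbx3 was most like the syndecan gene Sdc1 (0.18), the non-coding gene Dnm3os (0.20) and Tspan18 (0.22), and Tbx18 was most like Rrp1b (0.11), Tuba1a (0.11) and Entpd6 (0.12). These values describe likeness over 8 libraries from 4 animals.

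Among the other genes of the GATA family and their cofactors, 6 of 7 had values and 0 of 6 passed the adjusted threshold by limma. Gata5, another GATA factor of heart and gut development, came closest, with 17.1 and 11.9 CPM in static WT MCs against 0.16 and 0.41 CPM in static CAV1-/- MCs. Stretched cultures had 14.5 and 7.58 CPM of Gata5 in WT MCs and 0.15 and 0.60 CPM in CAV1-/- MCs. Unlike Gata6 it was low in both CAV1-/- animals, with differences of -3.58 (SE 0.37, limma adjusted p = 0.0509) and -3.09 (SE 0.37, limma adjusted p = 0.0821), and on the recovered reads edgeR gave adjusted p-values of 0.131 and 0.190 and DESeq2 3.53e-08 and 3.47e-08. Gata5 reached 1 CPM in WT libraries alone. Zfpm1, which encodes the GATA cofactor FOG1, was lower without overlap in both conditions (1.79-fold and 1.49-fold by the means), beside 9.24% of all genes. In static culture it was at 141 and 133 CPM in WT MCs and at 41.3 and 111 CPM in CAV1-/- MCs. On stretch it was at 123 and 108 CPM against 63.4 and 91.4 CPM, so CAV1-/- replicate 1 was the lowest in both conditions. Gata2, better known from blood and endothelium, was higher without overlap in both (0.77 and 0.60, beside 6.37% of all genes). Trps1, an atypical GATA repressor, was higher by this rule in static culture only (0.71, beside 16.1% of all genes), with overlap on stretch (0.91). None of these 3 had an adjusted p under 0.05.

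Of the 11 other T-box genes, 2 had values, and neither passed the test. Mga, which carries a T-box and a basic helix-loop-helix domain, was at 91.2 and 97.4 CPM in static WT MCs and at 85.3 and 84.8 CPM in static CAV1-/- MCs. Of 12 partners of these factors with values, 0 passed the test, and Mef2c, a MADS-box partner of GATA and T-box factors, had the largest difference. It was at 17.9 and 17.3 CPM in static WT MCs against 3.71 and 6.78 CPM in static CAV1-/- MCs, with a difference of -1.62 (SE 0.47, limma adjusted p = 0.383). Tcf12, the dimer partner of Tcf21, was at 93.2 and 94.7 CPM in WT and at 98.4 and 106 CPM in CAV1-/- static MCs, a difference of 0.12 (SE 0.15, limma adjusted p = 0.922).

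Of 25 other coelomic lineage factors with values, 0 passed the test in either genotype comparison, 5 (Bnc1, Osr1, Nr2f2, Meis2 and Prrx2) were lower and 2 (Foxf2 and Meis1) were higher without overlap in static culture (20.8% and 16.1% of all genes), and the median difference was -0.040 in static culture and 0.071 on stretch. Bnc1, a zinc-finger factor of mesothelium that is also on the marker list, was at 217 and 214 CPM in static WT MCs and at 61.2 and 116 CPM in static CAV1-/- MCs (-1.34, SE 0.30, limma adjusted p = 0.235). Of 19 genes reported as targets of these factors, 0 passed the test, and the median difference was 0.10 in static culture and 0.0066 on stretch. Mycn, a growth-promoting transcription factor gene, was at 26.4 and 48.8 CPM in WT and at 5.52 and 25.9 CPM in CAV1-/- static MCs (-1.48, SE 0.98), and the hyaluronan synthase gene Has2 was at 10.9 and 39.8 CPM against 48.5 and 79.3 CPM (1.51, SE 0.66).

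BMP and retinoid signalling lie upstream of several members in development. Of 17 BMP pathway genes, 0 passed the test, and 5 (Bmp4, Bmpr1a, Smad6, Id1 and Id3) were lower in CAV1-/- MCs without overlap in both conditions, beside 9.24% of all genes. The ligand gene Bmp4 was at 32.1 and 40.3 CPM in static WT MCs and at 7.17 and 20.1 CPM in static CAV1-/- MCs (-1.49, SE 0.48, limma adjusted p = 0.458). Of 15 retinoid pathway genes, 1 passed the test in both comparisons, a call that was lost in 11 of 21 alternative settings in static culture (adjusted p up to 0.442, without WT static replicate 1) and in 10 of 21 on stretch (up to 0.249, with the 4 libraries of the comparison alone). This was Aldh1a1, a retinal dehydrogenase gene, which fell from 227 and 189 CPM in static WT MCs to 12.1 and 15.6 CPM in static CAV1-/- MCs (-3.82, SE 0.32, limma adjusted p = 0.0361) and differed by -4.34 on stretch (SE 0.32, limma adjusted p = 0.0247). In the other direction, 3 of the 15 (Rarb, Crabp1 and Rdh10) were higher in all 4 CAV1-/- cultures than in any WT culture (3.86% of all genes). Only Aldh1a1 was lower by this rule (5.88% of all genes).

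Of the 14 mesothelial markers with values, all 14 had a lower mean in CAV1-/- MCs in both comparisons, with a median of -2.27 in static culture and -2.56 on stretch, and Lrrn4, Krt8 and Cldn15 passed the adjusted threshold in both. These calls were lost in 10, 7 and 12 of 21 alternative settings in static culture and in 8, 5 and 11 on stretch. Calb2 had no row. Of the 14, 12 were lower without overlap in both conditions (9.24% of all genes), as Tcf21, Tbx4 and Gata6 were. Of the members, Tbx3, Tbx18 and Tbx20 had higher log2 means in CAV1-/- MCs in both conditions. The summed level of 8 fibroblast markers was higher in replicate 2 than in replicate 1 of either genotype in each condition (7116 to 8118 CPM in replicate 1 and 11055 to 17032 CPM in replicate 2), the same order of animals as for Tbx3 and the opposite of that for Gata4 and Tbx20. Pericyte and smooth muscle markers (7 with values) summed to 3810 to 7326 CPM in replicate 1 and to 2429 to 3309 CPM in replicate 2. These markers did not all move together, as 4 were highest in CAV1-/- static replicate 1, 1 in CAV1-/- static replicate 2 and 2 in WT stretch replicate 2. The part of these cell types in the levels of Gata4, Tbx3 and Tbx20 was not tested. Endothelial markers (4 with values) summed to 12.1 to 68.1 CPM, with Pecam1 without a row, and of 6 skeletal muscle markers only Acta1 had a row, at 6.37 to 1231 CPM.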

How the data were processed

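The authors trimmed reads with Cutadapt, estimated reads per gene with RSEM on the GRCm38 transcriptome and normalized them by the TMM method, and deposited the resulting signal, TMM-normalized CPM for 13687 genes. Values were whole multiples of 1 read (100% within 0.01 reads), so reads were recovered. The members and gene lists were chosen with earlier results of these data known. Genes at 1 CPM or more in at least 2 libraries (13665, with 22 removed) were fitted by limma 3.58.1 (R 4.3.3) on log2(value + 1), all 8 libraries together, 1 mean per group, intensity trend, 4 residual degrees of freedom and Benjamini-Hochberg adjustment. edgeR 4.0.16 and DESeq2 1.42.0 were run on the recovered reads, where they called 2 and 309 genes between genotypes in static culture. Static and stretched cultures of an animal deviated together (r = 0.703 in WT and 0.850 in CAV1-/- MCs), as the labels state shared animals. P-values measure the spread between cultures within groups, pooled over the 4 groups, from 2 animals per genotype. The main fit treated static and stretched cultures of an animal as independent, so its 4 degrees of freedom are not from independent animals.

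All members were named. From each list the genes past the threshold in a genotype comparison were eligible, otherwise up to 5 with the largest static difference, a mean of at least 5 CPM and no overlap, and per member the 3 most alike genes, its neighbours and Cav1. Further genes of a list are named only where a count of 5 or fewer is given. Gene positions and exon lengths are from GENCODE M21, and sequences are from RefSeq. Scripts were tested on simulated data. Alternatives were other pseudocounts, filters, scalings, blocks, tools and sample sets.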

Additional observations from a re-analysis of the deposited data

How the results depend on the processing

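Between genotypes in static culture limma called 10 genes, and the count was 6 without the intensity trend, 2 with the animal as a random effect, 0 with the 4 libraries of the comparison alone, 2 by edgeR, 309 by DESeq2 and 0 to 8 with 1 culture left out. On stretch it called 8 genes, and the count was 0 with 4 libraries, 237 by DESeq2 and 0 to 7 with 1 culture left out. With both cultures of CAV1-/- replicate 1 left out, an alternative chosen after seeing the data, the count was 0 in both comparisons. For stretch against static culture limma called 0 genes, and DESeq2 called 3 in WT and 7 in CAV1-/- MCs. The replicate block called 246 genes between genotypes in static culture and 110 on stretch, and with the animal as the block 1 gene for stretch in CAV1-/- MCs. Between genotypes the numbers pair different animals (r = 0.522 and 0.484), and under this block Tcf21 had an adjusted p of 0.0211 and 0.0485 and Gata5 of 0.0237 and 0.0426, and no other tested member came to pass the threshold. The adjusted p of Tcf21 over the other alternatives, up to 0.641 in static culture and 0.899 on stretch, did not pass.

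Of 613 values of members under alternatives, 568 stayed the same and 39 reversed, none of the reversed values past the threshold. Staying the same meant keeping direction and side of the threshold. For Tbx2 in static culture, which was not tested, it meant a shift of less than its SE. By that rule 16 Tbx2 values stayed and 4 moved, over a range of -2.73 to -0.65. The static Gata4 difference was 0.0017 with a pseudocount of 5, 0.011 with quantile normalization, 0.089 by edgeR and 0.12 by DESeq2. Without CAV1-/- replicate 1 (both cultures), Tbx20 was at -0.40 in static culture and -0.47 on stretch, Gata4 at -0.82 on stretch, and the Gata4 stretch difference in CAV1-/- MCs was 0.16. With 1 culture left out, genotype differences in static culture ranged from -0.25 to 0.95 for Tbx3, -0.40 to 1.05 for Tbx20 and -1.32 to 1.21 for Gata4. On stretch they ranged from -0.44 to 1.36 for Tbx3, -0.019 to 0.50 for Tbx18, -0.47 to 1.15 for Tbx20 -0.82 to 1.24 for Gata4, -0.0053 to 0.34 for Tcf12 and -1.56 to 0.096 for Osr1. Stretch differences in WT MCs ranged from -0.68 to 0.78 for Tbx3, -0.13 to 0.39 for Tbx18, -0.80 to 0.55 for Tbx20 and -1.41 to 0.73 for Gata4. In CAV1-/- MCs they ranged from -0.74 to 1.06 for Tbx3, -0.0010 to 0.084 for Tbx4, -0.92 to 0.69 for Tbx20, -1.34 to 1.19 for Gata4, -1.09 to 0.73 for Gata6 and -0.60 to 0.26 for Tcf21. The cause was not tested. A lone culture is assumed to vary like the other groups.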
